A study of Homo sapiens with 14 samples.

Results

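The miR-146 family, miR-155 and miR-210 were followed as 6 mature miRNAs: hsa-miR-146a-5p, hsa-miR-146b-5p, hsa-miR-146b-3p, hsa-miR-155-5p, hsa-miR-210-3p and hsa-miR-210-5p. They were taken by name from the 2588 mature miRNAs of each count table, and all 6 were found in both tables. The tables came from A549 cells, a human lung adenocarcinoma line grown in culture, in which 2 assays for N7-methylguanosine (m7G) were run on total RNA whose caps had been removed. In BoRed-seq, free m7GTP was present in the reactions of both groups. The Red libraries (n = 2) held RNA treated with sodium borohydride, and the Ctrl libraries (n = 2) held RNA given borohydride that acid had already quenched. Both were then brought to low pH, labelled with a biotin probe for sites without a base, and pulled down on streptavidin beads, so that Ctrl is itself a pulldown. In m7G-RIP-seq, the IP libraries (n = 5) held RNA bound by an antibody against m7G and released with m7GTP, and the Input libraries (n = 5) held the decapped, denatured RNA before the antibody. The labels name no altered gene, drug, cytokine or low oxygen in any group. All 14 libraries came from 1 cell line, and nothing in the labels says whether replicates were separate cultures, so p-values measure the spread between these libraries. The tables hold mature miRNAs alone, and the identity of the line was not checked against marker mRNAs.

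A mature miRNA is a short RNA cut from 1 arm (5p or 3p) of a hairpin precursor, and its seed, bases 2 to 8, pairs with target mRNAs. miR-146a is induced through NF-kappaB, and miR-146a and miR-146b repress adaptors of Toll-like receptor signalling such as TRAF6 and IRAK1. miR-155 is made from the BIC transcript in activated lymphocytes and myeloid cells. miR-210 is the miRNA most widely induced by hypoxia-inducible factor in low oxygen, and represses iron-sulfur cluster assembly factors such as ISCU. Whether such an RNA carries m7G is what both assays ask.

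The mature sequences are shown because the family relations and the guanine content of the members follow from them. All 6 matched the RefSeq miRNA table of GRCh38.p14 and are written 5′ to 3′ with the seed in capitals:
hsa-miR-146a-5p: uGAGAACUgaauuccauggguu
hsa-miR-146b-5p: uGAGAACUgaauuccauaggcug
hsa-miR-146b-3p: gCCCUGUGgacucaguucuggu
hsa-miR-155-5p: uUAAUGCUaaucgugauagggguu
hsa-miR-210-3p: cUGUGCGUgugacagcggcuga
hsa-miR-210-5p: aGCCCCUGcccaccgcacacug

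The 5p arms of miR-146a and miR-146b share their first 17 bases, the seed included, and 20 of 22 positions are identical, so reads that stop short or carry an error near the 3′ end can be hard to assign to 1 of them. Their seed was also that of miR-7153-5p, which had 0 counts in all 14 libraries, and no other miRNA of the table with a sequence shared a seed with miR-146b-3p, miR-155-5p or either arm of miR-210. Each member came from 1 hairpin. miR-146a-5p lies at chr5:160485372-160485393 on the plus strand, in an exon of the lncRNA gene MIR3142HG of GENCODE 44. The arms of miR-146b lie at chr10:102436520-102436542 (5p) and chr10:102436557-102436578 (3p) on the plus strand, outside any other annotated gene. miR-155-5p lies at chr21:25573983-25574006 on the plus strand, in an exon of the lncRNA gene MIR155HG. The arms of miR-210 lie at chr11:568112-568133 (3p) and chr11:568150-568171 (5p) on the minus strand, in an intron of the lncRNA gene MIR210HG.

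Guanines, the only bases that can carry m7G, made up 9 of 22 bases in miR-210-3p (40.9%) and 4 of 22 in miR-210-5p (18.2%), the extremes of the 6. miR-155-5p held 7 of 24, with the longest unbroken run of G, 4 bases. The median over all miRNAs of the table with a sequence was 27.3%, and it was 40.9% in the miRNAs enriched by m7G-RIP-seq and 22.7% in those depleted. The miR-210 hairpin, in which both arms were counted, is shown with the arms in capitals (chr11:568089-568198, minus strand):
MIR210: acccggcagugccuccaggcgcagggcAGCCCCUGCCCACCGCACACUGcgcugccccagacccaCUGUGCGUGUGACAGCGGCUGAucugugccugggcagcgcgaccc

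Library depth set how far each member could be read. Totals over all mature miRNAs were 242085 and 277498 counts in Red, 5874405 and 4678102 in Ctrl, 2854811 to 6452759 in IP and 7097379 to 14874685 in Input. A count of 0 allows a level of up to 12.4 CPM (counts scaled to a library total of 1000000) in Red 1 and 10.8 in Red 2, the worth of 3 counts there, against at most 0.641 in Ctrl, 0.423 in Input and 1.05 in IP. miR-21-5p, an abundant miRNA of epithelial tumours, took 79.0% and 80.4% of the counts in Ctrl and 26.9% and 26.7% in Red, 38.0% to 46.3% in Input and 4.64% to 6.27% in IP. CPM therefore moves with miR-21-5p, and enrichments were set on counts divided by DESeq2 size factors (normalised counts), which take the typical miRNA as unchanged.

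**Figure D1:**
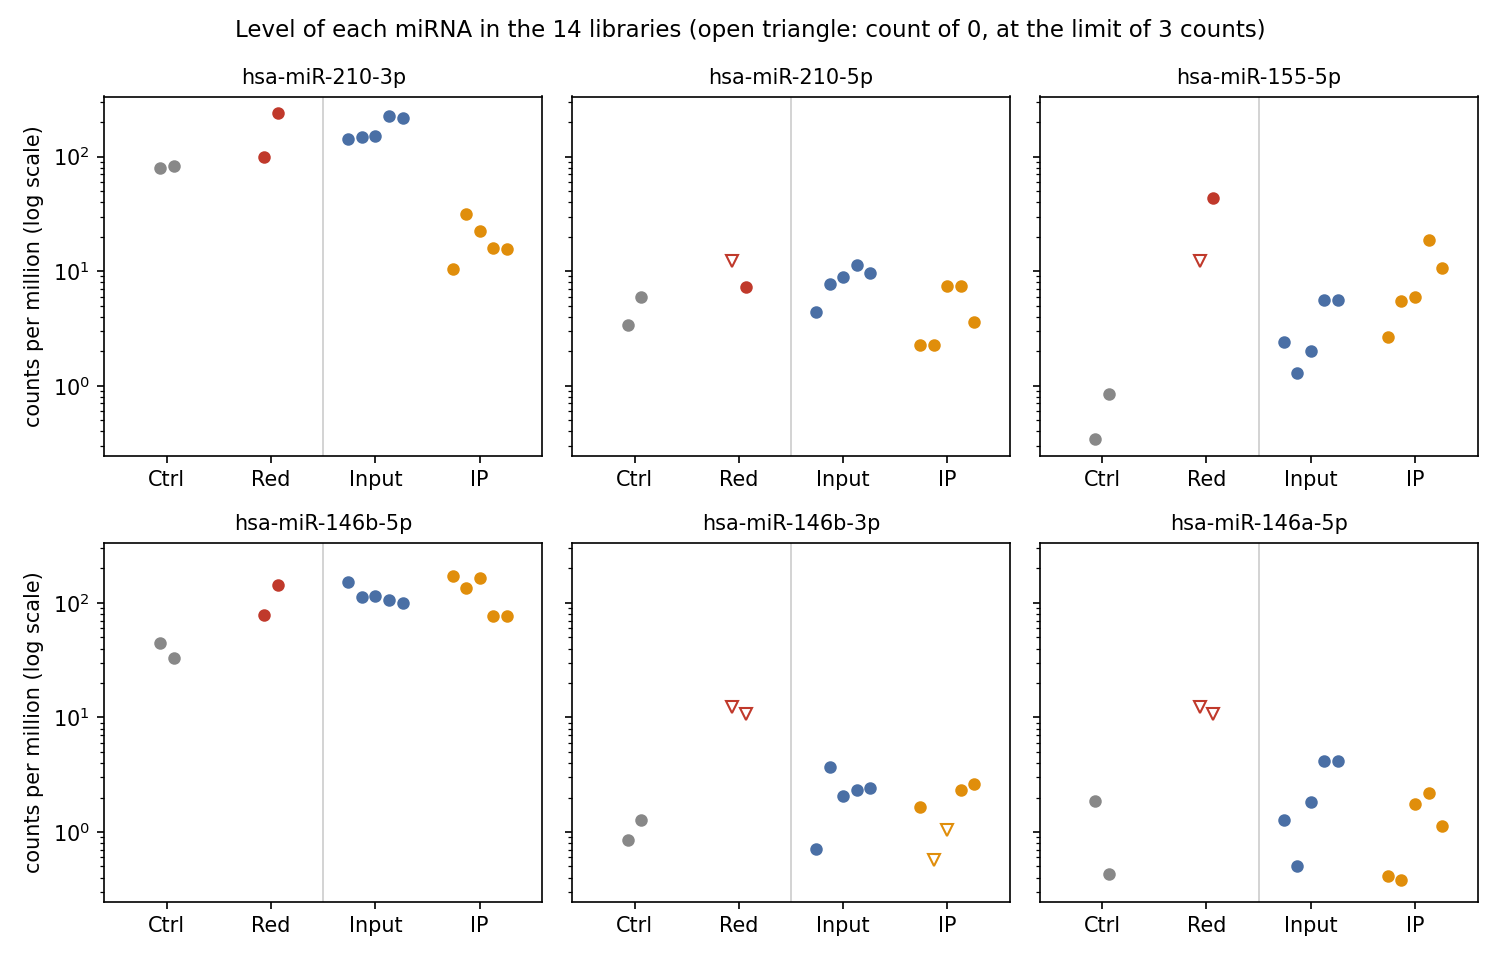
Level of each miRNA in every library, in CPM on a log axis, for the Ctrl and Red libraries of BoRed-seq (n = 2 each) and the Input and IP libraries of m7G-RIP-seq (n = 5 each). Points are libraries in the order of their replicate numbers, and open triangles are counts of 0 drawn at the limit of 3 counts. miR-210-3p and miR-146b-5p lie above the others in Input, and miR-210-3p is the 1 member whose IP and Input points do not overlap.

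In the Input libraries the 6 members spanned nearly 2 orders of magnitude. miR-210-3p stood highest, at 176.5 ± 40.3 CPM (SD, n = 5), the 117th most abundant of 1596 miRNAs with counts, and miR-146b-5p followed at 117.3 ± 20.6 CPM (137th). These 2 overlapped, since the lowest miR-210-3p library was at 142 CPM and the highest miR-146b-5p library at 153. Next came miR-210-5p, at 8.41 ± 2.59 CPM (351st).

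Lowest were miR-155-5p at 3.38 ± 2.07 CPM, miR-146a-5p at 2.39 ± 1.70 and miR-146b-3p at 2.25 ± 1.07, and neighbours in this order differed by less than the SD of either. The order in Ctrl was alike at the top, with miR-210-3p at 81.4 ± 3.13 CPM (SD, n = 2), miR-146b-5p at 39.1 ± 8.08 and miR-210-5p at 4.69 ± 1.82, while miR-146a-5p (1.15 ± 1.02), miR-146b-3p (1.07 ± 0.305) and miR-155-5p (0.598 ± 0.364) again lay at the bottom. The members are 22 to 24 bases long, so these levels in CPM were compared without a correction for length. In bulk RNA, fewer cells with a miRNA and less of it per cell cannot be told apart.

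The partner arms were all but absent. miR-146a-3p had 1 count, in IP 1, and miR-155-3p had 0 counts in all 14 libraries. Both arms of a hairpin were thus read for miR-210 and miR-146b alone.

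The m7G-RIP-seq comparison, IP against Input, gave the clearest result for miR-210-3p, the main hypoxia-induced arm. Its normalised counts in Input were 1139, 1319, 1325, 1638 and 1709 in replicates 1 to 5. In IP they were 67.3, 206.7, 134.9, 103.4 and 105.3. Every IP library lay below every Input library by a wide margin. The fitted log2 enrichment was -3.53 ± 0.29 (SE), which is 11.6-fold lower in IP (95% interval of the log2, -4.11 to -2.96), with a DESeq2 adjusted p of 5.24e-32.

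This placed miR-210-3p 39th from the lowest among the 670 miRNAs tested, with 5.67% of them lower. IP and Input did not overlap for 42.4% of the 670, and miR-210-3p was the 1 member of which this was true. Against the Input of the same replicate number, the log2 ratio ran from -4.07 to -2.67, lower in 5 of 5 pairs. Within replicates 1 to 3 alone and within replicates 4 and 5 alone, the fit stayed past the threshold in the same direction.

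miR-210-5p, the scarcer arm of its hairpin, was also depleted, but less. Normalised counts in Input were 35.0, 69.2, 78.4, 82.0 and 76.8, and in IP 14.5, 14.8, 44.3, 48.6 and 24.1. The groups overlapped, because Input 1 lay below IP 3 and IP 4. The log2 enrichment was -1.24 ± 0.44 (adjusted p = 0.0107), with IP lower in 5 of 5 pairs (-2.19 to -0.75).

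This call was lost within replicates 1 to 3 alone (log2 of -1.38, adjusted p = 0.0879) and within replicates 4 and 5 alone (-1.14, adjusted p = 0.0803), and with total-count scaling (-0.90, adjusted p = 0.0779), the direction being the same in each. Across the 6 members, 5 had enough counts to be tested (at least 10 in at least 5 libraries). Of those, 2 were depleted, both of them arms of miR-210, and 0 were enriched, where 29.9% of all tested miRNAs were depleted and 27.3% enriched. The median log2 of the 5 members was -1.07, and that of all 670 was 0.02. The former is the value of miR-146b-3p, which was not called (adjusted p = 0.305), and 2 of the 5 values come from 1 hairpin. The median therefore does not show a depletion of the members as a group.

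The 2 arms of miR-210 changed unequally within the same libraries, which no scaling can alter. The 5p arm made up 2.98%, 4.99%, 5.59%, 4.77% and 4.30% of the counts of both arms in Input 1 to 5. In IP 1 to 5 it made up 17.7%, 6.67%, 24.7%, 32.0% and 18.6%. All 5 IP libraries lay above all 5 Input libraries.

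The log2 of 5p over 3p was -4.42 ± 0.35 in Input and -2.14 ± 1.00 in IP (SD, n = 5 each), a difference of 2.29. The two-sided exact permutation test gave p = 0.00794, the smallest that its 252 splits allow, and 0.0159 after Benjamini-Hochberg adjustment over the 2 ratios tested. Paired by replicate number, 5 of 5 pairs moved the same way, and the exact sign-flip test gave its smallest possible p with 5 pairs, 0.0625. The counts behind the 5p arm in IP were 11 to 48. The ratio shows unequal change of the arms, not that either was fixed.

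The other family with both arms gave no such test. miR-146b-3p had 0 counts in IP 2 and IP 3, and made up 0.945%, 2.91% and 3.31% of both arms in IP 1, 4 and 5, against 0.459% to 3.20% in Input.

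miR-146b-5p, the abundant member of its family here, was close to the typical miRNA in m7G-RIP-seq. Normalised counts were 1225, 1000.4, 1002, 775.0 and 793.7 in Input, and 1107, 873.7, 992.5, 507.7 and 519.0 in IP. The groups overlapped, and both fell into a higher set, replicates 1 to 3, and a lower set, replicates 4 and 5. The log2 enrichment was -0.26 ± 0.28 (adjusted p = 0.426), with a 95% interval of -0.81 to 0.28.

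Against its own Input each IP was lower, by a log2 of -0.61 to -0.01 (5 of 5 pairs). Within replicates 1 to 3 alone the log2 was -0.16 (adjusted p = 0.473), within replicates 4 and 5 alone -0.65 (adjusted p = 0.00193), and with a term for those replicates it was -0.31 (adjusted p = 0.0494), whereas with the replicate number as a block it did not pass. Total-count scaling, which moved the median of all miRNAs by 0.33, gave 0.094 (adjusted p = 0.783).

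miR-146a-5p had under 10 counts in most IP libraries and fell below the count filter. Its raw counts were 9, 7, 23, 49 and 62 in Input and 2, 2, 5, 14 and 6 in IP, and IP lay below the Input of the same number in 5 of 5 pairs after scaling (log2 of -2.05 to -0.59). In a fit with no filter the log2 was -1.38 ± 0.74 (adjusted p = 0.132).

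Its share relative to miR-146b-5p, which bears the same seed, was small in every library. The log2 of miR-146a-5p over miR-146b-5p was -5.94 ± 1.37 in Input and -6.81 ± 1.42 in IP (SD, n = 5 each). They differed by -0.87, less than the spread between libraries (two-sided exact permutation p = 0.302, and 0.302 after adjustment), although 5 of 5 pairs had the lower ratio in IP (sign-flip permutation p = 0.0625, the smallest that 5 pairs allow). The difference was -0.47 without IP 1, -1.31 without Input 2 and -0.22 with a prior count of 5 in place of 0.5. The closeness of the sequences bears on this ratio, since a read of the shared 5′ bases alone fits both, and its part was not tested.

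miR-146b-3p had raw counts of 5, 52, 26, 27 and 36 in Input and 8, 0, 0, 15 and 14 in IP. The log2 enrichment was -1.07 ± 0.90 (adjusted p = 0.305), and IP was higher in 1 of 5 pairs. The 95% interval ran from -2.83 to 0.69. The pairs disagreed: the 0 counts of IP 2 and IP 3 allow at most 0.567 and 1.05 CPM, below the 3.72 and 2.08 CPM of their Inputs, while the log2 ratio was 0.85, -0.14 and -0.11 in pairs 1, 4 and 5. Replicates 1 to 3 alone gave a log2 of -2.44 (adjusted p = 0.185), and replicates 4 and 5 alone gave -0.16 (adjusted p = 0.891).

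miR-155-5p was the 1 member whose values leaned towards the IP. Normalised counts were 19.2, 11.4, 17.5, 40.4 and 44.8 in Input and 17.1, 35.7, 35.8, 123.6 and 71.1 in IP. IP 1 lay below its own Input, and the groups overlapped. The log2 enrichment was 1.09 ± 0.59 (95% interval -0.06 to 2.24), with an adjusted p of 0.0991 that missed the threshold.

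IP was above the same-numbered Input in 4 of 5 pairs (log2 of -0.16 to 1.60, median 1.01). With the replicate number as a block, the log2 was 0.99 ± 0.44 and the adjusted p 0.0390, so that miR-155-5p was then called enriched. It was called likewise without IP 1 (1.32, adjusted p = 0.0323) but was at 0.59 (adjusted p = 0.390) without IP 4, and was called within replicates 4 and 5 alone (1.17, adjusted p = 0.0440) but not within replicates 1 to 3 alone (0.85, adjusted p = 0.395). It ranked 489th from the lowest of 670 miRNAs, with 72.8% of them lower.

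**Figure D2:**
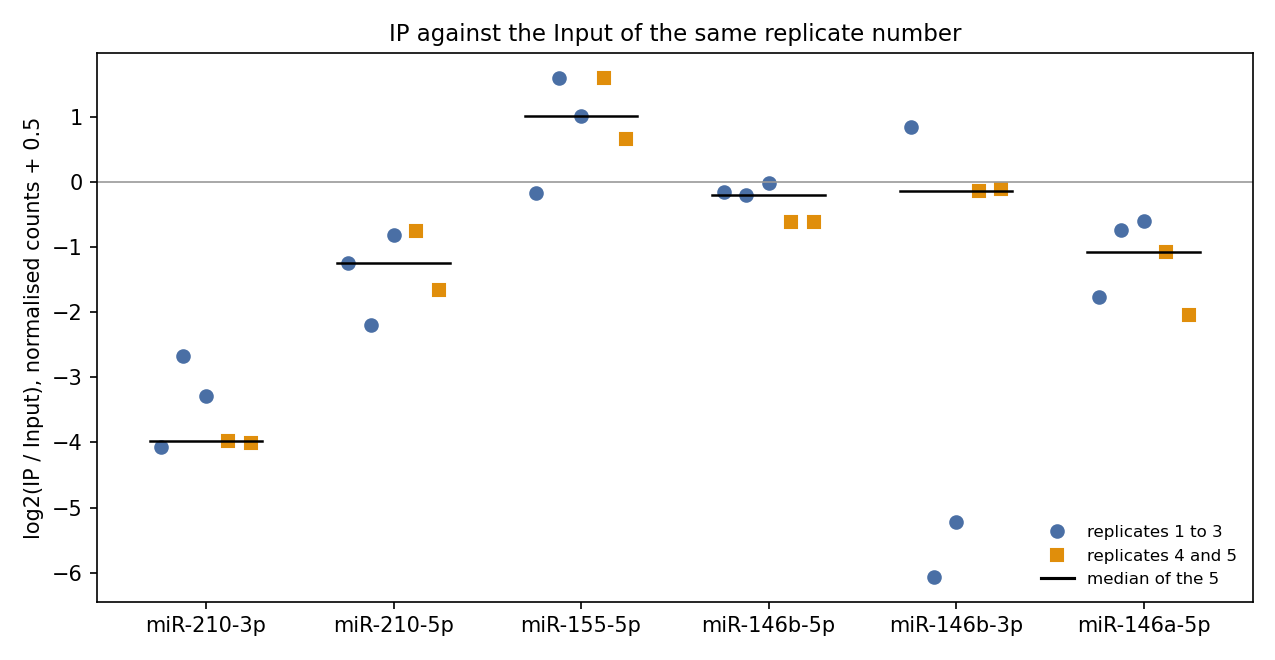
Log2 ratio of IP to the Input of the same replicate number for each miRNA (normalised counts with 0.5 added), with replicates 1 to 3 as circles, replicates 4 and 5 as squares and the median as a line. miR-210-3p runs from -4.07 to -2.67 in the 5 pairs, miR-155-5p is above 0 in 4 of 5, and the 2 lowest points of miR-146b-3p are IP libraries with 0 counts.

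Replicates 4 and 5 stood apart from replicates 1 to 3 in several members. miR-155-5p was 2.65-fold higher in replicates 4 and 5 than in 1 to 3 in Input and 3.29-fold higher in IP, with no overlap in either, while miR-146b-5p was at 0.729 and 0.518 of its level in replicates 1 to 3, again with no overlap. miR-146a-5p was 3.10-fold higher in the Input of replicates 4 and 5, and miR-210-3p 1.33-fold. Such splits were common: of all 670 miRNAs tested, 36.4% had the Input libraries of replicates 4 and 5 above those of replicates 1 to 3, and 29.3% had the same in IP, with 17.5% in both. In the other direction, 162 of the 670 had replicates 4 and 5 below replicates 1 to 3 in Input and 138 in IP. How many were below in both, as miR-146b-5p was, was not counted. miR-146b-3p was 4.69-fold higher in the IP of replicates 4 and 5, also without overlap, where IP 2 and IP 3 had 0 counts. What set the replicates apart is not given in the labels.

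**Figure D3:**
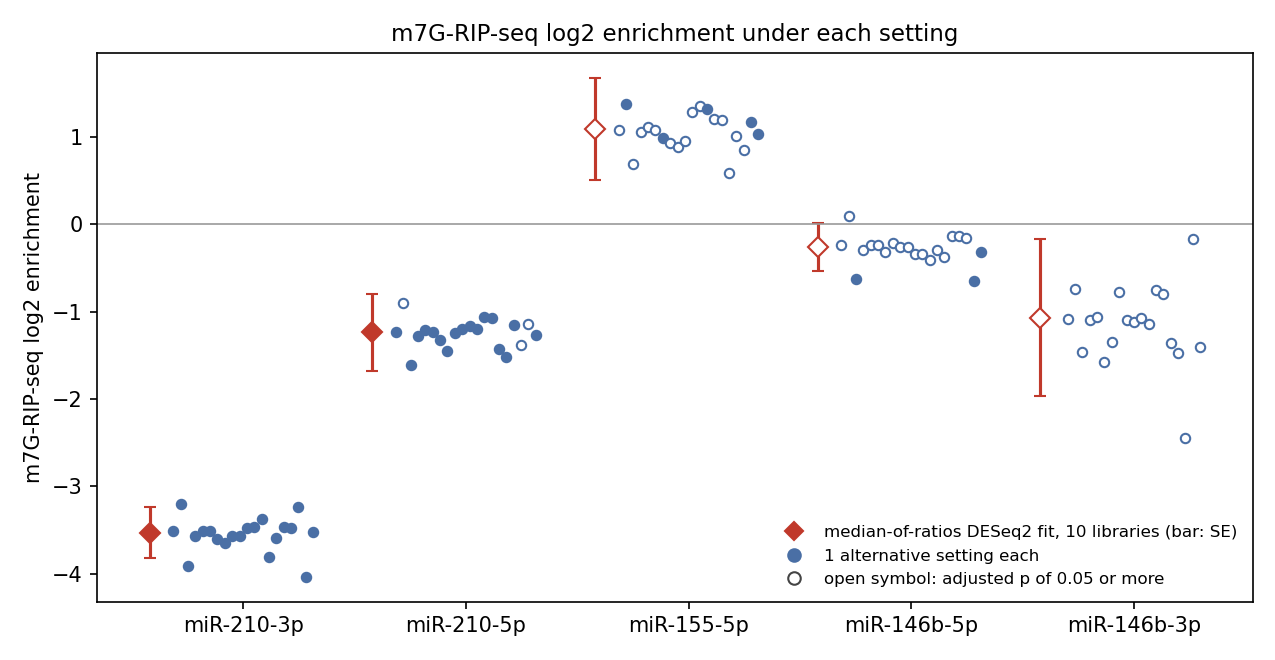
Log2 enrichment in m7G-RIP-seq of the 5 miRNAs tested, as the DESeq2 fit over 10 libraries (diamond, bar = SE) and under each alternative (circles), filled where the adjusted p was under 0.05. miR-210-3p is filled in every setting, between -4.04 and -3.20, miR-155-5p is above 0 in every setting but filled in 5 of 20, and miR-146b-5p lies on both sides of 0.

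In BoRed-seq, Red against Ctrl, no member was called. Of the 6, 3 passed the count filter (at least 10 counts in at least 2 libraries) and 2 had an adjusted p, and 0 of these were enriched or depleted, where 32.2% of the 400 miRNAs tested were enriched and 27.2% depleted. Normalised counts of miR-210-3p were 128.7 and 145.4 in Ctrl and 88.9 and 164.0 in Red, with Red on both sides of Ctrl. The log2 was -0.10 ± 0.44 (adjusted p = 0.867, 95% interval -0.96 to 0.77).

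miR-146b-5p had normalised counts of 72.8 and 58.0 in Ctrl and 70.4 and 97.9 in Red. Red 1 lay between the Ctrl libraries and Red 2 above both. The log2 was 0.38 ± 0.49 (adjusted p = 0.522, 95% interval -0.58 to 1.33). Without Red 1 it was 0.72 and without Red 2 it was 0.025. Total-count factors, which moved the median of all miRNAs by 1.12, gave 1.07 (adjusted p = 0.0583) for miR-210-3p and 1.52 (adjusted p = 0.0114) for miR-146b-5p. Total-count factors without miR-21-5p, which moved that median by -0.73, gave -0.33 for miR-146b-5p.

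The 4 scarcer members were at the limit of the Red libraries. miR-210-5p had 20 and 28 raw counts in Ctrl and 0 and 2 in Red, and its log2 of -1.55 ± 1.76 had no adjusted p. miR-146a-5p had 11 and 2 counts in Ctrl and miR-146b-3p had 5 and 6, and both had 0 in Red, where 0 counts allow up to 12.4 and 10.8 CPM, far above their level in Ctrl. A fall in these was not detectable at this depth, and only a rise past those limits could have been seen.

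miR-155-5p had 2 and 4 counts in Ctrl, and 0 and 12 in Red. The 12 counts of Red 2 stand for 43.2 CPM (95% Wilson interval 24.7 to 75.6, counting error alone), above the limit of 12.4 CPM for the 0 of Red 1. The Red libraries thus disagreed with each other, and the unfiltered fit gave a log2 of 3.40 ± 1.81 (adjusted p = 0.126).

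The difference between the assays was tested for the members with an adjusted p in both. For miR-210-3p, BoRed-seq minus m7G-RIP-seq was 3.44 ± 0.53 (95% interval 2.40 to 4.47), and the two-sided z test on the SEs of the 2 DESeq2 fits gave an adjusted p of 1.28e-09. This difference passed for 38% of the 384 miRNAs tested in both. An interaction term in 1 DESeq2 fit over the 14 libraries gave 2.99 (adjusted p = 1.01e-06). For miR-146b-5p the difference was 0.64 ± 0.56 (adjusted p = 0.377), with an interval of -0.46 to 1.74.

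miR-210-3p was therefore depleted relative to the typical miRNA by the antibody and lay near that typical miRNA in BoRed-seq. Since the control of each assay differs (a pulldown of unreduced RNA against RNA before the pulldown), the difference is one between assays with their controls, and the assay and its control cannot be told apart.

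**Figure D4:**
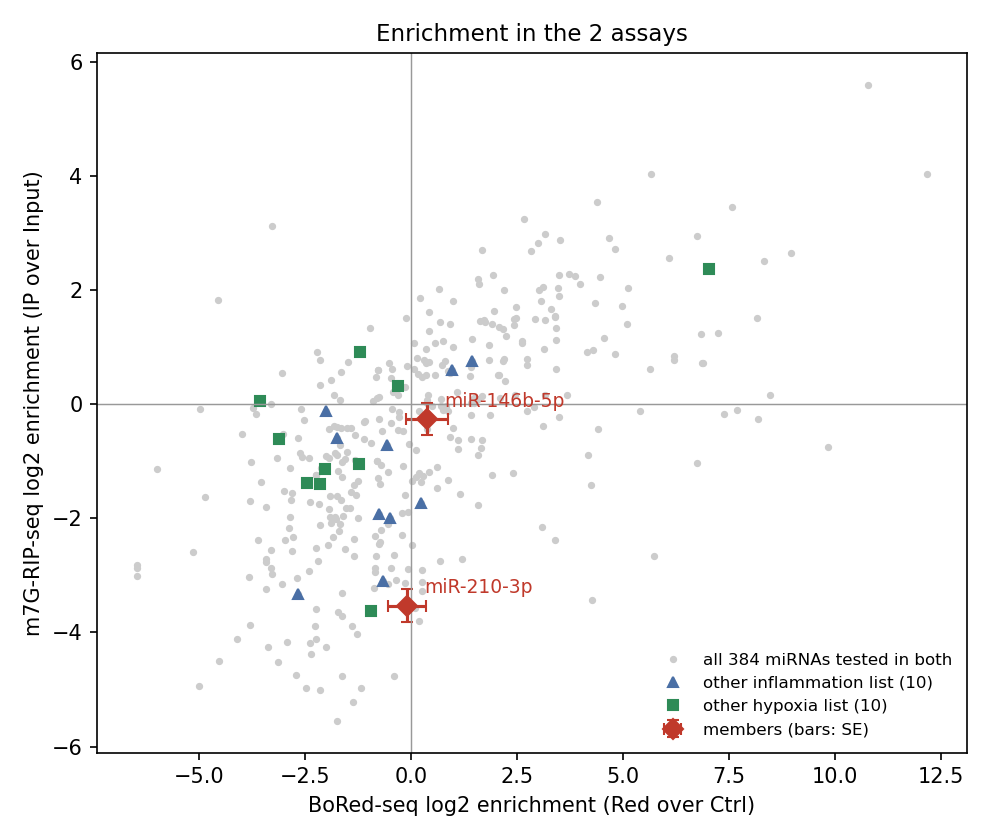
Log2 enrichment in BoRed-seq (x axis, Red over Ctrl) against m7G-RIP-seq (y axis, IP over Input) for the 384 miRNAs tested in both, with the other inflammation miRNAs (triangles), the other hypoxia miRNAs (squares) and the members (diamonds, bars = SE). miR-146b-5p lies close to 0 on both axes, and miR-210-3p lies near 0 in BoRed-seq and at -3.53 in m7G-RIP-seq.

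Other miRNAs linked to inflammation or hypoxia were read from lists of 12 and 13 names. Of all tested miRNAs, 32.2% were enriched and 27.2% depleted in BoRed-seq, and 27.3% and 29.9% in m7G-RIP-seq. Of the inflammation list, 10 were tested in BoRed-seq (2 enriched, 3 depleted, median log2 -0.62, where all tested miRNAs had -0.09) and 11 in m7G-RIP-seq (2 enriched, 6 depleted, median -0.72, against 0.02). miR-92a-3p and miR-222-3p were the enriched ones in both assays, at log2 values of 1.44 and 0.97 in BoRed-seq and 0.76 and 0.59 in m7G-RIP-seq. They were named after their values were seen. miR-21-5p was depleted in both, by -2.67 ± 0.28 (adjusted p = 2.04e-20) and -3.32 ± 0.19 (5.89e-70). miR-9-5p, induced like miR-146 in activated monocytes, was too, by -0.75 ± 0.28 (0.0160) and -1.93 ± 0.18 (1.47e-26).

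Of the hypoxia list, 10 were tested in BoRed-seq (1 enriched, 8 depleted, median -1.63) and 11 in m7G-RIP-seq (1 enriched, 7 depleted, median -1.05). miR-181a-5p was depleted by -0.94 ± 0.31 (adjusted p = 0.00461) in BoRed-seq and by -3.62 ± 0.24 (8.95e-48) in m7G-RIP-seq, and miR-24-3p by -3.12 ± 0.30 (4.28e-24) and -0.61 ± 0.17 (0.00101). miR-26a-5p was called in opposite directions, at -1.21 in BoRed-seq (adjusted p = 6.13e-05) and 0.91 in m7G-RIP-seq (0.0467). It was named after its values were seen, as was miR-199a-5p, the list's enriched miRNA in BoRed-seq. There miR-199a-5p had a log2 of 7.01 ± 0.93 (adjusted p = 2.63e-13) at a mean normalised count of 41.5 over Ctrl and Red together. A log2 of that size at that mean leaves very few counts in Ctrl. miR-199a-5p thus passed the count filter through the Red libraries, where it was high, and its log2 and p rest on a nearly empty control. In m7G-RIP-seq miR-199a-5p was not called (2.36 ± 1.29, adjusted p = 0.105). miR-103a-3p, also named after its values were seen, was listed at 0 in every library. Whether that 0 reflects the cells or the way reads were counted was not tested. In BoRed-seq 8 of 10 of this list were depleted, while miR-210-3p was not called. Its 95% interval, -0.96 to 0.77, held the value of the depleted miR-181a-5p (-0.94), and the contrast was not tested.

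The miRNAs whose normalised profile over the 14 libraries was closest to a member, by the root mean square (RMS) difference of log2 values centred within each assay, were sought among 425 candidates. For miR-210-3p these were miR-181a-5p (RMS 0.488), miR-17-5p (0.497) and miR-106a-5p (0.540), where the median candidate was at 1.68. All 3 were depleted in m7G-RIP-seq, by -3.62, -3.10 and -3.57. The IP and Input libraries entered the profile, so the choice itself favours miRNAs depleted like miR-210-3p. For miR-146b-5p they were let-7g-5p (0.214), miR-424-3p (0.223) and miR-129-5p (0.335), with a median of 1.21. For miR-210-5p they were miR-4671-5p (0.647), miR-493-3p (0.681) and miR-1254 (0.697), with a median of 1.46. The libraries share their controls and their differences in depth, and these values describe likeness without a test.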

How the data were processed

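For each assay the authors deposited a table of raw read counts, with 1 entry per mature miRNA. Per the methods of the study, adaptors were trimmed with Trimmomatic, 50-bp single-end reads were aligned to GRCh38 (hg38) with STAR end to end (at most 1 mismatch, reads kept up to 10 loci), and featureCounts counted them over miRBase 22. The submitters' processing notes name Bowtie2 in place of STAR, and tool versions are not given in the sources used here. The authors had neither normalised nor pooled the counts. Each table held 0 columns that matched no sample.

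Here, groups came from the sample labels. DESeq2 1.42.0 (R 4.3.3) tested Red against Ctrl and IP against Input with its Wald test, without covariates, as in the study's methods. The fits took miRNAs that reached 10 counts in 2 or more BoRed-seq libraries, or in 5 or more of m7G-RIP-seq, with median-of-ratios size factors. Adjusted p-values of an enrichment are Benjamini-Hochberg over the miRNAs of an assay that received one, and are from DESeq2 unless another tool is named. These were 400 of 453 fitted miRNAs in BoRed-seq and 670 of 670 in m7G-RIP-seq. The default filter of DESeq2 on mean count left the others without one. Those of the z test are over the 384 miRNAs tested in both assays. A call is an adjusted p under 0.05. Alternatives were TMM, total-count factors with and without miR-21-5p, other filters, edgeR 4.0.16, a replicate block, left-out libraries, thinned Ctrl libraries and replicates 1 to 3 or 4 and 5 alone. Same-numbered IP and Input libraries deviated together (correlations of 0.299 to 0.592 over 313 miRNAs), and the block is given where it changes a call. Libraries of different numbers were not compared in this way. Pairing by number thus cannot be told apart from the split between replicates 1 to 3 and replicates 4 and 5. BoRed-seq has 2 pairs (0.299), too few to show pairing. Replicates of every group differed by more than sampling noise (chi-square of at least 12.6 per degree of freedom). Intervals of counts are Wilson intervals, and they and the limit of 3 counts cover counting error alone, as no molecular identifiers were given. The scripts were tested on simulated data. The members and the lists were chosen with earlier results of these data known. Named were the 6 members, their absent arms and seed partners, the 3 miRNAs most like each member past the count filter of both assays, and the 2 of each list with the largest absolute log2 among those called in both. Others are said to be named after their values were seen.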

Additional observations from a re-analysis of the deposited data

Results flagged for a closer look

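The normalised count of miR-210-5p in Input 1 was 35.0, against 69.2 to 82.0 in the other 4 Input libraries, and its gap to the nearest of them was large for a group of 5. Over the 12 groups of 5 libraries examined it was the only one so marked, and chance marks about 1 in 20. Without Input 1 the log2 enrichment of miR-210-5p in m7G-RIP-seq stayed past the threshold.

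miR-210-3p differed between the assays, by 3.44 on the log2 scale (BoRed-seq minus m7G-RIP-seq), as tested by the z test of the report. The value in BoRed-seq was -0.10 and that in m7G-RIP-seq -3.53, and 38% of miRNAs tested in both passed this test.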

How the results depend on the processing

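The log2 of miR-210-3p in m7G-RIP-seq kept its direction and its side of the threshold under all 20 alternatives, from -4.04 to -3.20. Other values moved. In BoRed-seq, total-count factors gave 1 member enriched, 46 miRNAs depleted, 1.52 for miR-146b-5p (adjusted p = 0.0114) and 1.07 for miR-210-3p. Total-count factors without miR-21-5p gave 167 depleted and -0.33 for miR-146b-5p, and no filter gave it -0.11. A filter of 10 counts in every library left 71 enriched and 71 depleted, edgeR gave 167 depleted, and Ctrl thinned to the depth of Red gave 58 depleted and 0.059 for miR-210-3p. Leaving out 1 library gave 62 (without Ctrl 2) to 86 depleted and -0.70 (without Red 2) to 0.40 (without Red 1) for miR-210-3p, and 0.025 (without Red 2) to 0.72 (without Red 1) for miR-146b-5p.

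In m7G-RIP-seq, total-count factors gave 1 member enriched and 1 depleted, 0.094 for miR-146b-5p, 1.37 for miR-155-5p (adjusted p = 0.0377) and -0.90 for miR-210-5p. Total-count factors without miR-21-5p gave -0.63 for miR-146b-5p (adjusted p = 0.0455), and 10 counts in every library left 116 depleted. Replicates 1 to 3 alone gave 1 member depleted and -1.38 for miR-210-5p. Replicates 4 and 5 alone gave 1 member enriched, -0.65 for miR-146b-5p, 1.17 for miR-155-5p and -1.14 for miR-210-5p. A term for these replicates gave 1 member enriched, -0.31 for miR-146b-5p and 1.03 for miR-155-5p (adjusted p = 0.00710). Leaving out 1 library gave 0 to 1 members enriched and 0.59 (without IP 4) to 1.35 for miR-155-5p. The cause of these moves was not tested.

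With the replicate block, m7G-RIP-seq had 192 miRNAs enriched and 237 depleted (183 and 200 without it), 1 member was enriched, miR-155-5p, at 0.99 (adjusted p = 0.0390), and the paired test of the miR-210 arm ratio, 2.29, gave a sign-flip p of 0.0625, the smallest that 5 pairs allow, so this test could not pass and does not bear on the ratio's stability. The block changed no other call of a member. BoRed-seq, which has too few pairs to show pairing, had 119 and 98 with it (129 and 109 without).

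Total-count factors moved the median of all miRNAs by 1.12 (BoRed-seq) and 0.33 (m7G-RIP-seq), those without miR-21-5p by -0.73 and -0.38, and TMM by -0.18 in BoRed-seq. Enriched miRNAs were 54.2% of the BoRed-seq calls, 79.2% with total-count factors and 37.7% without miR-21-5p, and 47.8%, 58.6% and 36.6% of the m7G-RIP-seq calls. The Red depth limits BoRed-seq to the 2 abundant members.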
